A study of Mus musculus with 8 samples.

Results

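Glycolysis was read here through 10 genes for steps of the route from glucose entry to lactate export: the glucose transporter Slc2a1, the enzymes Hk2, Pfkl, Pfkp, Aldoa, Gapdh, Pgk1, Pkm and Ldha, and the lactate transporter Slc16a3. They were chosen by gene symbol, with earlier results of these data known, and all 10 were found among the 24786 symbols of the files. RNA had been sequenced from macrophages of the mouse liver in 8 libraries, as polyA RNA from strain C57BL/6. There were 4 groups of 2 libraries. Kupffer cells are the liver's own resident macrophages, and monocyte-derived macrophages (MoM) arise from blood monocytes. Each cell type came from wild-type mice (WT) and from dnTGFβRII mice (TG), a cholangitis model that expresses a dominant-negative form of TGF-β receptor II. This transgene is known to be driven by a CD4 promoter that acts in T cells, not in macrophages. The labels give no age, sex, treatment or number of animals per library. They do not say that the libraries of a group came from separate animals, so the p-values measure the spread between these libraries, which may be technical.

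Glycolysis splits glucose to pyruvate in the cytosol, and lactate dehydrogenase turns the pyruvate into lactate, which leaves the cell with a proton through a monocarboxylate transporter. Entry through the glucose transporter, phosphorylation by hexokinase and the phosphofructokinase step are the places where flux is best known to be controlled, and many of the steps are served by paralogs with different kinetics. Macrophages that respond to bacterial products or to low oxygen are known to take up more glucose and to export more lactate, and the transcription factor HIF-1α is a known activator of most of these genes. A transcript level is not a flux, and none was measured.

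Of the 10 genes, Pfkp, the platelet-type phosphofructokinase, was the 1 that passed the test. It rose in MoM against Kupffer cells in both genotypes, by 2.94-fold in WT and by 2.68-fold in TG. Slc16a3, the lactate exporter MCT4, had the largest fitted folds of the list in the same comparisons, 4.06 in WT and 6.18 in TG, but its libraries were spread widely and it did not pass. Slc2a1, the glucose transporter GLUT1, was highest in TG MoM, and Hk2, hexokinase 2, had nearly the same mean in all 4 groups. Between TG and WT no gene passed in either cell type. Positive fold changes were found for 9 of the 10 members in Kupffer cells and 8 in MoM, beside 53.1% and 46.7% of all genes. Of the 10 fold changes, 3 in Kupffer cells and 4 in MoM were not larger than their standard error. Of these, 2 and 4 changed sign under at least 1 alternative way of processing. The plot of all 10 genes by library shows these levels.

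**Figure D1:**
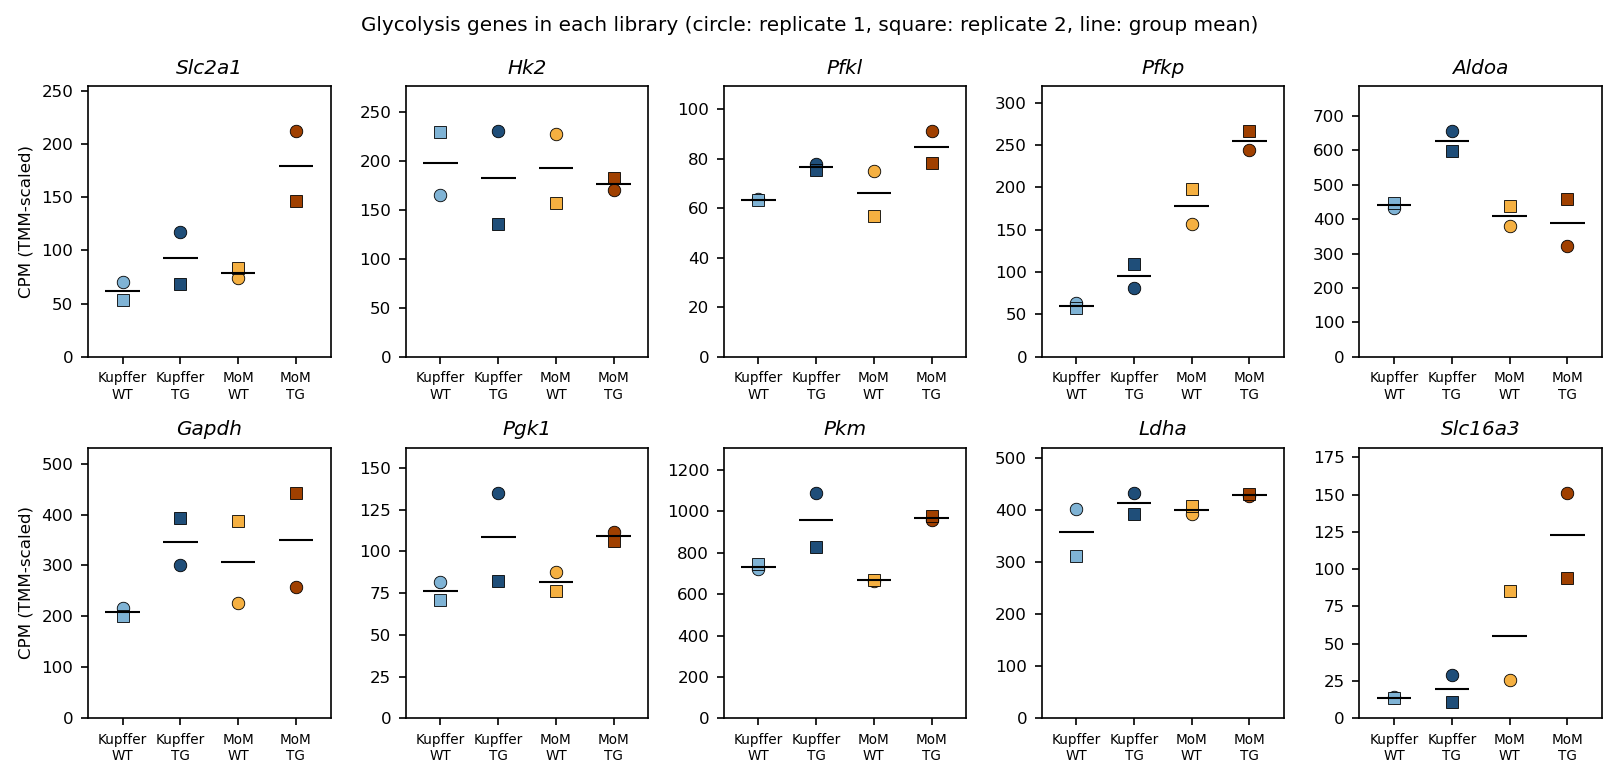
CPM (each gene's share of its library's counts, after TMM scaling) of each of the 10 genes on linear axes that start at 0. Each point is 1 library and each line the mean of the 2 libraries of a group. The MoM points of Pfkp lie above all Kupffer points, at 157 to 266 against 57.7 to 109 CPM, while the 4 groups of Hk2 overlap.

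Levels are given as CPM, a gene's share of the library's counts. They are scaled between libraries by TMM, a method that assumes that most genes do not change. Library totals were 26190194 to 30308132 counts, and all 10 members passed the filter on low counts. The fit was edgeR's quasi-likelihood test over all 8 libraries and 15254 genes, with Benjamini-Hochberg adjustment over all of them. A gene was called, or said to have risen or fallen, at an adjusted p below 0.05. A log2 fold change is printed for a gene only where it is larger than its standard error (SE); the others are given as a range.

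The summed level of 8 Kupffer cell markers was 13694 to 27081 CPM in the Kupffer libraries. In MoM it was 143 to 475 CPM in 3 libraries and 8358 CPM in WT MoM 1. Whether this RNA came from Kupffer cells in that library or from the MoM themselves was not tested. The 9 endothelial markers summed to 5868 CPM in TG Kupffer 2 and 3775 CPM in WT MoM 1, against 453 to 1587 CPM in the other 6 libraries. The 10 neutrophil markers summed to 3649 CPM in TG MoM 2 and to at most 550.4 CPM elsewhere, with Camp, Elane and Ly6g at 0 in the WT Kupffer libraries. In bulk RNA, fewer cells of a type and less RNA per cell cannot be told apart. TG Kupffer 2 and WT MoM 1, the highest in endothelial markers, are therefore also left out together where a result rests on them. The libraries kept are not free of RNA of other cells. Hepatocyte markers summed to 868 CPM in TG Kupffer 2 and 599 CPM in WT MoM 1, but also to 627 CPM in WT MoM 2. Erythroid markers summed to 3827, 894 and 3122 CPM in the same libraries.

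The promoters of 3 genes are shown first, because Slc2a1, Pfkp and Slc16a3 are the members whose MoM libraries both lay above both Kupffer libraries in WT and again in TG, which held for 18.9% of all genes. Each sequence is the 250 bases before the RefSeq transcription start in GRCm38.p6, 5′ to 3′ on the gene's own strand. GENCODE, the source of the gene spans given below, places these starts elsewhere. The Slc16a3 window lies wholly within its GENCODE span, and those of Slc2a1 and Pfkp overlap theirs in part. Capitals mark the core of the hypoxia response element to which HIF-1α binds, searched as ACGTG and GCGTG on both strands. ACGTG also lies within the E-box CACGTG, which MYC and other factors bind, but no match marked here forms a full CACGTG. A match does not name a factor. The windows are chr4:119108495-119108744 (plus strand) for Slc2a1, chr13:6648772-6649021 (minus strand) for Pfkp and chr11:120948817-120949066 (plus strand) for Slc16a3.
Slc2a1: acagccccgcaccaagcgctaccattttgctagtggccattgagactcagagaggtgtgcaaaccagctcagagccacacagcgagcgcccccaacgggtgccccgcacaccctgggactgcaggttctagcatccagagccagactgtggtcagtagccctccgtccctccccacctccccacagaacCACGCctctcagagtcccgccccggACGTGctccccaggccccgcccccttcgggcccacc
Pfkp: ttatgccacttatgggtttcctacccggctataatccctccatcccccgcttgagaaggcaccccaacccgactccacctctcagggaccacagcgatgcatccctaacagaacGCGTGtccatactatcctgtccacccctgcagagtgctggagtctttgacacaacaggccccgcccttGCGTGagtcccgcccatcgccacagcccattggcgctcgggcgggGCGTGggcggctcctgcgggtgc
Slc16a3: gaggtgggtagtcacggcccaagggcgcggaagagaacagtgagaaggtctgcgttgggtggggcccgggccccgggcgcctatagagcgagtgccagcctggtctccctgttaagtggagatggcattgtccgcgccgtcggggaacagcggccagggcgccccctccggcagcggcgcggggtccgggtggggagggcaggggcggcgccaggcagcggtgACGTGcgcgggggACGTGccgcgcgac

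The Slc2a1 window held 2 matches, with first bases 61 and 36 bases before the start. The Pfkp window held 3, all spelled GCGTG, at 136, 68 and 23 bases, and the Slc16a3 window held 2 copies of ACGTG at 27 and 14 bases. All 10 members had a match in at least 1 of their annotated windows, and 12 of their 14 windows did, beside 38.6% of the 32817 windows of all genes in the same table. That last share is per window and not per gene. Both motifs contain CG, and the windows were not matched for base composition, so these counts are no test of enrichment. Matches were found both in Pfkp, which passed the test, and in members such as Hk2 and Ldha, which passed none. A match describes letters only, and no binding was measured.

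Slc2a1 (chromosome 4, 119108711 to 119137983, plus strand) encodes GLUT1, which brings glucose into the cell. Its level was 70.0 and 53.7 CPM in WT Kupffer 1 and 2, 117 and 68.1 CPM in TG Kupffer 1 and 2, 74.4 and 83.8 CPM in WT MoM, and 212 and 146 CPM in TG MoM. Both TG MoM libraries were above the other 6, while the TG and WT Kupffer libraries overlapped. The TG MoM mean was 179 ± 46.5 CPM (SD, n = 2), against 79.1 ± 6.64 CPM in WT MoM, 92.6 ± 34.5 CPM in TG Kupffer cells and 61.9 ± 11.5 CPM in WT Kupffer cells. TG Kupffer cells overlapped with both WT groups, and WT MoM lay just above WT Kupffer cells. For TG against WT the log2 fold change was 1.18 (SE 0.33) in MoM, with an unadjusted p of 0.0110 and an adjusted p of 0.755 in edgeR, and 0.58 (SE 0.33) in Kupffer cells, with an adjusted p of 0.738. The Kupffer value was 0.11 without TG Kupffer 1 and 0.96 without TG Kupffer 2. For MoM against Kupffer cells it was 0.36 (SE 0.33) in WT and 0.95 (SE 0.33) in TG, with adjusted p of 0.507 and 0.141 in edgeR, and the TG value was 0.52 without TG Kupffer 2. The difference between the 2 effects of TG, tested as an interaction, was 0.60 (SE 0.46), with an adjusted p of 0.693 in edgeR.

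Slc2a3, encoding the neuronal-type transporter GLUT3, is the paralog that macrophages can use beside Slc2a1. It was at 9.59 and 9.63 CPM in WT Kupffer cells, 5.97 and 19.1 CPM in TG Kupffer cells, 36.1 and 89.0 CPM in WT MoM and 49.6 and 60.5 CPM in TG MoM. All 4 MoM libraries were thus above all 4 Kupffer libraries, with log2 fold changes of 2.70 (SE 0.65) in WT and 2.13 (SE 0.64) in TG and adjusted p of 0.0937 and 0.107 in edgeR. Per kilobase of transcript, Slc2a1 made up 81.2% to 96.0% of the summed level of both genes in Kupffer libraries and 53.4% to 83.9% in MoM libraries. Slc2a1 remained the larger share in every library.

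Hk2 (chromosome 6, 82725025 to 82774454, minus strand) encodes hexokinase 2, which traps glucose in the cell as glucose 6-phosphate. It was at 165 and 229.6 CPM in WT Kupffer cells, 230.4 and 135 CPM in TG Kupffer cells, 228 and 157 CPM in WT MoM and 170.3 and 182 CPM in TG MoM. The groups overlapped in every comparison, and the means ran only from 176 ± 8.44 CPM in TG MoM to 197 ± 45.6 CPM in WT Kupffer cells (SD, n = 2). No fold change of Hk2 exceeded its standard error.

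Hk3, the hexokinase of myeloid cells, stood in contrast to Hk2. It was at 549 and 585 CPM in WT Kupffer cells, 748 and 357 CPM in TG Kupffer cells, 215 and 37.1 CPM in WT MoM and 109 and 126 CPM in TG MoM. Every MoM library was below every Kupffer library, with log2 fold changes of -2.17 (SE 0.79) in WT and -2.23 (SE 0.79) in TG, and edgeR's adjusted p was 0.165 and 0.148. WT MoM 1, the MoM library with the highest Hk3, is also the one with Kupffer cell markers, whose part in its value was not tested. Hk1, the widely expressed hexokinase, was at 87.1 to 125 CPM across all 8 libraries. As a share of the 3 hexokinases per kilobase, Hk3 made up 67.4% to 78.3% in the Kupffer libraries and 17.2% to 49.6% in the MoM libraries, and Hk2 made up 13.3% to 16.6% and 30.8% to 42.5%. The higher share of Hk2 in MoM thus came with an Hk2 level that was about the same in both cell types. In counts, Hk2 over Hk3 was 0.301 to 0.393 in Kupffer libraries and 1.06 to 4.24 in MoM libraries.

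Phosphofructokinase commits the sugar to glycolysis, and its subunits are named for liver (Pfkl), platelet (Pfkp) and muscle (Pfkm). Pfkp (chromosome 13, 6579768 to 6648777, minus strand) was at 63.3 and 57.7 CPM in WT Kupffer cells, 81.2 and 109 CPM in TG Kupffer cells, 157 and 198 CPM in WT MoM and 244 and 266 CPM in TG MoM. The 4 groups did not overlap at all, and stood in the order WT Kupffer, TG Kupffer, WT MoM, TG MoM. MoM exceeded Kupffer cells by a log2 fold change of 1.55 (SE 0.23) in WT, with an adjusted p of 0.0450 in edgeR, and of 1.42 (SE 0.23) in TG, with an adjusted p of 0.0436. The steps between genotypes were smaller, 0.66 (SE 0.23) in Kupffer cells with an unadjusted p of 0.0274 and 0.52 (SE 0.23) in MoM, with adjusted p of 0.730 and 0.757 in edgeR.

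Both Pfkp calls lay close to the threshold and depended on the libraries in the fit. In WT the adjusted p rose to 0.327 without WT Kupffer 1, 0.392 without WT Kupffer 2, 0.118 without TG MoM 1, 0.115 without TG MoM 2, 0.194 without WT MoM 2 and 0.0518 with another scaling (RLE). In TG it rose to 0.131 without TG Kupffer 1, 0.131 without either WT Kupffer library, 0.207 without TG MoM 1, 0.144 without TG MoM 2 and 0.116 when only the 4 TG libraries were fitted. The log2 fold change itself stayed between 1.37 and 1.70 in WT and between 1.19 and 1.54 in TG over the leave-one-out fits. Without TG Kupffer 2 and WT MoM 1 it was 1.67 in WT and 1.54 in TG. WT MoM 1 had the lower Pfkp level of its pair, and TG Kupffer 2 the higher.

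Markers of other cell types also differed between the cell types compared. Of the 9 monocyte markers, 8 were higher in both WT MoM libraries than in both WT Kupffer libraries and 9 were in TG. Their sum was 144 to 455 CPM in Kupffer libraries and 789 to 3699 CPM in MoM libraries. All 10 neutrophil markers were likewise higher in MoM in both genotypes, at sums of 2.12 to 36.3 CPM in Kupffer and 57.6 to 3649 CPM in MoM libraries. The platelet markers, 5 in number, summed to 1.22 to 5.64 CPM in Kupffer and 8.58 to 19.4 CPM in MoM libraries. Dendritic cell markers summed to 57.7 to 255 CPM in Kupffer and 1218 to 1734 CPM in MoM libraries, and 6 of 7 were higher in MoM without overlap in WT and 4 in TG. NK cell markers were higher for 6 of 6 in WT and 5 in TG, and mast cell and basophil markers for 5 of 6 in both genotypes. B and plasma cell markers were higher for 5 of 6 in WT and 6 in TG. Endothelial markers were higher for 7 of 9 in WT and 0 in TG. Over all genes, 38.5% were higher in this way in WT and 29.1% in TG. All 7 markers shared by macrophages were lower in MoM without overlap in WT and 5 in TG, beside 29.7% and 23.8% of all genes. They summed to 9140 to 17782 CPM in Kupffer and 2382 to 7192 CPM in MoM libraries. EdgeR called 4 monocyte and 3 dendritic cell markers in WT, and 2 of each in TG, beside 1.17% and 2.50% of all genes. The part of the cell make-up in the levels of Pfkp and Slc16a3 was not tested.

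Pfkl (chromosome 10, 77986947 to 78010083, minus strand) was at 63.8 and 63.3 CPM in WT Kupffer cells, 77.9 and 75.7 CPM in TG Kupffer cells, 75.3 and 56.8 CPM in WT MoM and 91.2 and 78.5 CPM in TG MoM. TG was above WT without overlap in both cell types, but by log2 fold changes of only 0.27 (SE 0.20) in Kupffer cells and 0.36 (SE 0.20) in MoM, and the adjusted p was 0.791 and 0.779 in edgeR. Pfkm was low, at 4.69 to 13.5 CPM. The ratio of Pfkp to Pfkl counts was 0.912 to 1.45 in Kupffer libraries and 2.08 to 3.49 in MoM libraries. Per kilobase of principal transcript, Pfkp made up 43.0% and 40.6% of the 3 phosphofructokinase transcripts in WT Kupffer cells and 43.4% and 52.3% in TG Kupffer cells. In MoM it made up 61.3% and 73.1% in WT and 68.6% and 73.9% in TG. By this length Pfkp was the major subunit transcript in all 4 MoM libraries. In the Kupffer libraries Pfkl made up 40.2% to 49.5%, and Pfkp exceeded it in TG Kupffer 2 alone. With the union of all annotated exons as the length, which counts retained introns, the shares were lower, 25.8% to 35.8% in Kupffer and 44.8% to 60.2% in MoM libraries. Pfkl was then the major form in the Kupffer libraries, at 49.8% to 56.8%. In WT MoM 1 it was at 43.2%, close to Pfkp at 44.8%. The MoM libraries stayed above all Kupffer libraries under both lengths.

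**Figure D2:**
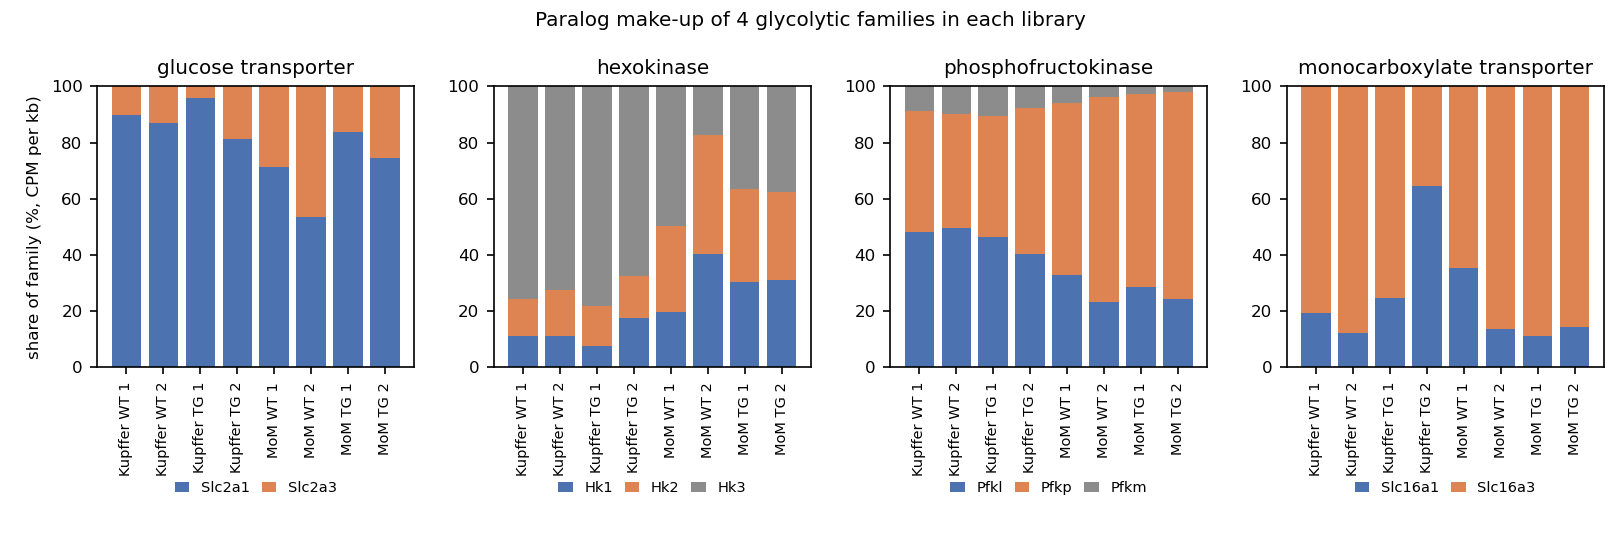
Share (%) of each paralog in the summed CPM per kilobase of principal transcript of its family, 1 bar per library. Pfkp takes 61.3% to 73.9% of the phosphofructokinase bar in MoM and 40.6% to 52.3% in Kupffer libraries, and Hk3 takes 67.4% to 78.3% of the hexokinase bar in Kupffer libraries.

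The enzymes of the lower pathway were the most abundant members. Aldoa (chromosome 7, 126795234 to 126800751, minus strand) encodes aldolase A, which cleaves the doubly phosphorylated sugar. It was at 433 and 448 CPM in WT Kupffer cells, 656 and 597 CPM in TG Kupffer cells, 379.9 and 439.6 CPM in WT MoM and 321 and 458 CPM in TG MoM. TG Kupffer cells stood above all other libraries, and the other 3 groups overlapped. For TG MoM against TG Kupffer cells its log2 fold change was -0.69 (SE 0.25), with an adjusted p of 0.160 in edgeR. In Kupffer cells the effect of TG was 0.51 (SE 0.25; adjusted p 0.730), and the interaction was -0.58 (SE 0.36; adjusted p 0.649). Its paralog Aldoc, the aldolase of brain, was at 2.54 to 16.9 CPM.

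Gapdh (chromosome 6, 125161715 to 125166467, minus strand) encodes the dehydrogenase that yields the first NADH, and is often used as a reference gene. It was at 216 and 202 CPM in WT Kupffer cells, 300.4 and 392 CPM in TG Kupffer cells, 226 and 387 CPM in WT MoM and 257 and 443 CPM in TG MoM. WT Kupffer cells were below all other libraries, and within each MoM group replicate 2 was far above replicate 1. The log2 fold change was 0.73 (SE 0.38) for TG against WT in Kupffer cells and 0.55 (SE 0.37) for MoM against Kupffer cells in WT, with adjusted p of 0.730 and 0.367 in edgeR. These values carry a further doubt. The annotation holds 71 copies with at least 95% identity to Gapdh over at least 50% of its transcript, and 3 of them have a row in the files. One of them, the processed pseudogene Gm12070, is 99.9% identical over 1002 bases and was counted at 86.3% to 122% of the Gapdh level, so the reads of both cannot be told apart and the level of Gapdh is uncertain.

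Pgk1 (chromosome X, 106187100 to 106203699, plus strand) encodes phosphoglycerate kinase, which makes the first ATP of the pathway. It was at 81.8 and 70.6 CPM in WT Kupffer cells, 135 and 82.5 CPM in TG Kupffer cells, 87.5 and 76.2 CPM in WT MoM and 112 and 106 CPM in TG MoM. TG lay above WT in both cell types, by a narrow margin in Kupffer cells, where TG Kupffer 1 was high and TG Kupffer 2 close to WT. The log2 fold change was 0.51 (SE 0.27) in Kupffer cells and 0.41 (SE 0.27) in MoM, with adjusted p of 0.730 and 0.821 in edgeR. Without TG Kupffer 1 the Kupffer value was 0.08, and without TG Kupffer 2 it was 0.87. The means of Kupffer cells and MoM were close within a genotype, at 76.2 ± 7.91 and 81.9 ± 8.01 CPM in WT and 109 ± 37.3 and 109 ± 4.0 CPM in TG (SD, n = 2).

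Pkm (chromosome 9, 59656368 to 59679375, plus strand) encodes the pyruvate kinases PKM1 and PKM2, splice forms that counts per gene do not separate. It was at 722 and 744 CPM in WT Kupffer cells, 1090.5 and 826 CPM in TG Kupffer cells, 666 and 669.5 CPM in WT MoM and 958 and 976 CPM in TG MoM. TG was above WT without overlap in both cell types, and the pairs of WT MoM, TG MoM and WT Kupffer libraries were each close together. The log2 fold change for TG against WT was 0.53 (SE 0.25) in MoM and 0.39 (SE 0.25) in Kupffer cells, with adjusted p of 0.757 and 0.768 in edgeR. The Kupffer value was 0.15 without TG Kupffer 1 and 0.62 without TG Kupffer 2.

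Ldha (chromosome 7, 46841475 to 46855627, plus strand) encodes the lactate dehydrogenase subunit that favours lactate formation. It was at 403 and 313 CPM in WT Kupffer cells, 434 and 393 CPM in TG Kupffer cells, 393 and 407 CPM in WT MoM and 427 and 431 CPM in TG MoM. The range over all libraries was narrow, the 2 TG MoM libraries lay above the 2 WT MoM libraries, and no fold change of Ldha exceeded its standard error. Ldha made up 93.1% to 99.3% of both lactate dehydrogenase transcripts per kilobase, and Ldhb, the subunit of oxidative tissues, was at 1.57 to 21.5 CPM.

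Slc16a3 (chromosome 11, 120948480 to 120960868, plus strand) encodes MCT4, the low-affinity exporter of lactate in strongly glycolytic cells. It was at 14.0 and 13.3 CPM in WT Kupffer cells, 29.0 and 10.7 CPM in TG Kupffer cells, 26 and 85.0 CPM in WT MoM and 151 and 94.3 CPM in TG MoM. Both TG MoM libraries were above the other 6, and WT MoM 1 was closer to TG Kupffer 1 than to WT MoM 2. For MoM against Kupffer cells the log2 fold change was 2.02 (SE 0.68) in WT and 2.63 (SE 0.70) in TG, with unadjusted p of 0.0238 and 0.00841 and adjusted p of 0.148 and 0.0891 in edgeR. Without TG Kupffer 2 and WT MoM 1, each the lower of its pair for Slc16a3, the same changes were 2.60 and 1.98. DESeq2 on all libraries called both, with adjusted p of 0.0343 and 0.00354. The WT value was 0.92 without WT MoM 2, and the TG value was 3.49 without TG Kupffer 1. TG against WT in MoM gave 1.15 (SE 0.67) with an adjusted p of 0.799, a value that was 2.24 without WT MoM 2 and 0.54 without WT MoM 1.

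Slc16a1, encoding the higher-affinity lactate carrier MCT1, was at 3.41 and 1.90 CPM in WT Kupffer cells, 9.64 and 20.1 CPM in TG Kupffer cells, 14.4 and 13.7 CPM in WT MoM and 19.6 and 16.1 CPM in TG MoM. WT Kupffer cells were thus below every other library. The log2 fold change for TG against WT was 2.48 (SE 0.47) in Kupffer cells, with an adjusted p of 0.674 in edgeR, and the interaction was -2.14 (SE 0.63) with an adjusted p of 0.626. In the authors' deposited table of 179 genes for TG against WT, which does not name the cell type, Slc16a1 has a log2 fold change of 2.50 with an SE of 0.650 and an adjusted p of 0.0125. That value is close to the 2.48 fitted here in Kupffer cells, while the value in MoM was not larger than its SE. The authors' value was deposited with these same libraries, so it is not taken here as separate evidence. None of the 10 members is in the authors' deposited table. Slc16a3 was the larger share of both carriers per kilobase in 7 libraries, at 64.8% to 88.8%, and the smaller in TG Kupffer 2, at 35.3%.

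Levels can be set against each other only per length. Averaged over the 8 libraries, the CPM per kilobase of principal transcript was 342 for Pkm, 309 for Aldoa, 227 for Ldha and 213 for Gapdh, then 51.5 for Pgk1, 35.5 for Pfkp, 34.0 for Hk2, 31.7 for Slc2a1, 19.5 for Pfkl and 12.2 for Slc16a3. Pkm, Aldoa and Ldha lay well above Pgk1 and the members below it, and the level of Gapdh is uncertain. With the union of exons as length the top 3 were Pkm at 166, Aldoa at 160.3 and Ldha at 121, then Gapdh at 73.3 and Pgk1 at 41.9, and Pfkp was at 11, level with Pfkl at 10.9. The 2 genes that differed most between cell types, Slc16a3 and Pfkp, were among the low ones. In WT Kupffer cells Slc16a3 was at 3.15 ± 0.123 CPM per kilobase and in TG MoM at 28.3 ± 9.29 (SD, n = 2).

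**Figure D3:**
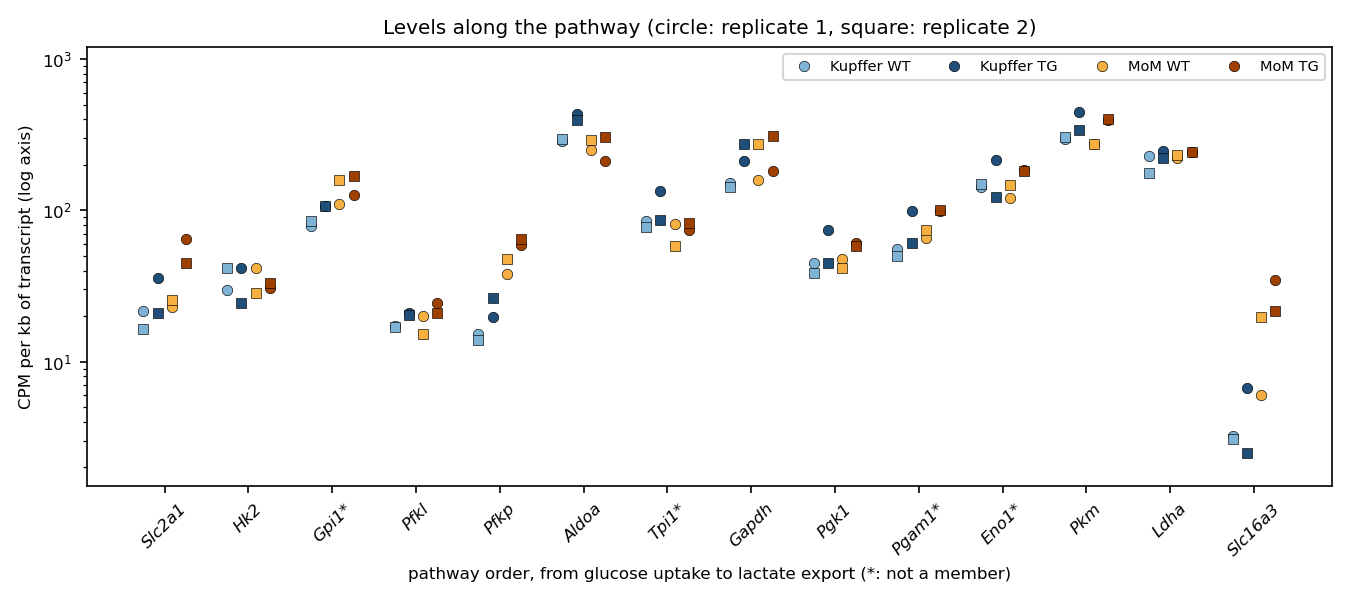
CPM per kilobase of principal transcript on a log axis, in pathway order, with 4 non-member steps marked by an asterisk. Each point is 1 library. The averages over libraries run from 12.2 for Slc16a3 to 342 for Pkm.

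The first question is whether glycolysis genes of resident macrophages differ in the cholangitis model, which sets TG against WT Kupffer cells. No member was called by edgeR, 1 (Pfkp) had an unadjusted p below 0.05, and DESeq2 called 0. Over all genes edgeR called 0%, 906 of 15254 had an unadjusted p below 0.05, and DESeq2 called 259. Both TG libraries were above both WT libraries for 6 members, namely Pfkl, Pfkp, Aldoa, Gapdh, Pgk1 and Pkm, beside 16.7% of all genes, and for none were both below, beside 17.7% of all genes. The median log2 fold change of the members was 0.51, beside 0.03 over all genes. The fold changes not larger than their error, those of Hk2, Ldha and Slc16a3, ran from -0.11 to 0.54. The median was 0.13 without TG Kupffer 1 and 0.60 without TG Kupffer 2. TG Kupffer 1 was the higher of the pair for 8 members, and TG Kupffer 2 for Pfkp and Gapdh. Markers of other cells moved in the same comparison, with 10 of 10 neutrophil and 8 of 9 monocyte markers higher in TG without overlap and 4 of 8 Kupffer cell markers lower. Neutrophil markers summed to 2.12 and 2.17 CPM in WT and 36.3 and 15.8 CPM in TG Kupffer cells, and monocyte markers to 186 and 144 CPM and to 455 and 303 CPM. Their part in the members' values was not tested.

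For TG against WT in MoM, no member was called by edgeR, 1 (Slc2a1) had an unadjusted p below 0.05, and DESeq2 called 0. Over all genes edgeR again called 0%, 987 genes had an unadjusted p below 0.05, and DESeq2 called 141. Both TG libraries were above both WT libraries for 7 members, which were Slc2a1, Pfkl, Pfkp, Pgk1, Pkm, Ldha and Slc16a3, beside 19.2% of all genes. The opposite held for none, beside 20.0% of all genes. The members' median was 0.39, beside -0.04 over all genes, and the 4 values not larger than their error (Gapdh, Hk2, Aldoa and Ldha) ran from -0.13 to 0.19. Pfkl, Pfkp, Pgk1 and Pkm, 4 of 10 members, were higher in TG without overlap in both cell types, beside 3.52% of all genes. In MoM all 9 hepatocyte markers and 5 of 7 dendritic cell markers were lower in TG without overlap, and 6 of 10 neutrophil, 5 of 9 monocyte and 4 of 6 mast cell and basophil markers were higher. Hepatocyte markers summed to 599 and 627 CPM in WT MoM and 16.1 and 186 CPM in TG MoM. Neutrophil markers summed to 57.6 and 550.4 CPM in WT MoM and 123 and 3649 CPM in TG MoM, and monocyte markers to 789 and 1582 CPM and to 1840.4 and 3699 CPM. Their part in the members' values was not tested.

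For MoM against Kupffer cells in WT, 1 member (Pfkp) was called by edgeR, beside 1.17% of all genes, 2 (Pfkp and Slc16a3) had an unadjusted p below 0.05, and DESeq2 called the same 2. Both MoM libraries were above both Kupffer libraries for Slc2a1, Pfkp, Gapdh and Slc16a3, 4 of 10 members beside 38.5% of all genes, and below them for Pkm alone, beside 29.7%. The members' share was thus near that of all genes. Under plain library totals, without TMM scaling, it was 8 of 10 beside 47.7% of all genes. Their median log2 fold change was 0.13, beside 0.11 over all genes, and the 6 values not larger than their error (Hk2, Aldoa, Ldha, Pkm, Pfkl and Pgk1) ran from -0.13 to 0.16.

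In TG, 1 member was called for MoM against Kupffer cells, again Pfkp, beside 2.50% of all genes, 4 (Slc2a1, Pfkp, Aldoa and Slc16a3) had an unadjusted p below 0.05, and DESeq2 called Pfkp and Slc16a3. Both MoM libraries were above for Slc2a1, Pfkl, Pfkp and Slc16a3, 4 of 10 beside 29.1% of all genes, and below for Aldoa alone, beside 23.8%. The median was 0.03, beside -0.04 over all genes, and the 6 values not larger than their error (Gapdh, Hk2, Ldha, Pkm, Pfkl and Pgk1) ran from -0.05 to 0.14. For the interaction, which sets the change with TG in MoM against the same change in Kupffer cells, edgeR called 0 members and 0% of all genes, 0 members and 980 genes had an unadjusted p below 0.05, and DESeq2 called 0 members and 47 genes. Its log2 values ran from -0.58 for Aldoa to 0.61 for Slc16a3, with adjusted p of 0.649 to 0.996 in edgeR. The comparisons share libraries, since each group enters more than 1 of them.

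**Figure D4:**
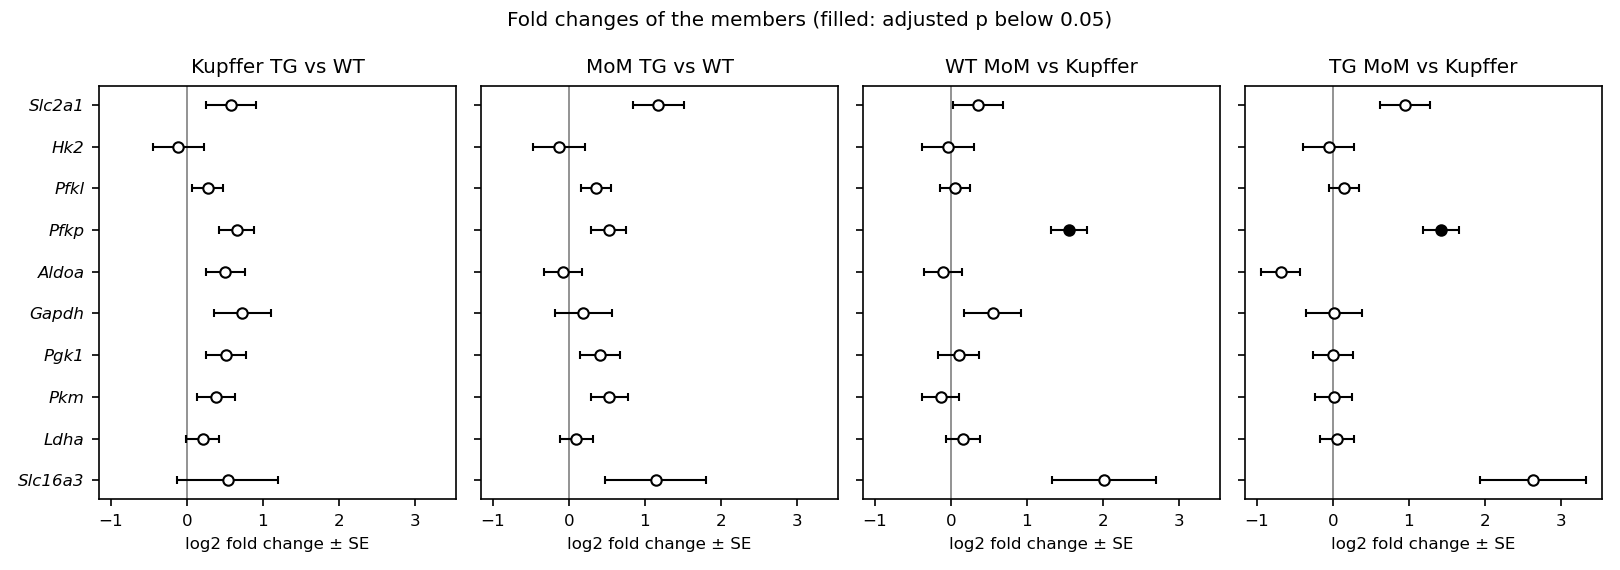
Log2 fold change of each of the 10 genes with its standard error in the 4 comparisons of 2 groups. Filled points have an adjusted p below 0.05 in edgeR, which holds for Pfkp alone, at 1.55 in WT and 1.42 in TG for MoM against Kupffer cells.

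The remaining steps of the pathway have no member in the list. Gpi1, which converts glucose 6-phosphate to fructose 6-phosphate, was at 226 and 246 CPM in WT Kupffer cells, 306 and 308 CPM in TG Kupffer cells, 319 and 460.1 CPM in WT MoM and 362 and 484 CPM in TG MoM. All 4 MoM libraries lay above all 4 Kupffer libraries, with log2 fold changes of 0.72 (SE 0.27) in WT and 0.46 (SE 0.27) in TG and adjusted p of 0.167 and 0.333 in edgeR. Tpi1, triosephosphate isomerase, was at 93.8 to 215 CPM, and highest in TG Kupffer 1. Pgam1, phosphoglycerate mutase, was at 99.1 and 88.3 CPM in WT Kupffer cells, 175 and 108 CPM in TG Kupffer cells, 116 and 133 CPM in WT MoM and 176 and 179 CPM in TG MoM, so that TG exceeded WT without overlap in both cell types. Eno1, enolase 1, was at 245 to 437 CPM, but its near copy Eno1b, 99.5% identical over 1736 bases, was counted at 99.1% to 110% of it, so the level of either is uncertain. Correlation with the members' mean z-score over the 8 libraries was computed for 9139 genes. Among these, once predicted genes were left out, Pgam1 was the most alike, at r = 0.976. Bid (0.964), Slamf8 (0.947) and Sh3pxd2b (0.932) were also among the most alike. These correlations describe libraries that share groups and depth.

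Of the 22 tested genes of other glycolytic steps and paralogs, 1 was called in TG MoM against TG Kupffer cells, beside 2.50% of all genes. It was Eno3, the enolase of muscle, and no other comparison gave a call. It was at 9.27 and 9.37 CPM in WT Kupffer cells, 6.77 and 5.71 CPM in TG Kupffer cells, 31.1 and 44.7 CPM in WT MoM and 121 and 40.3 CPM in TG MoM. All MoM libraries were above all Kupffer libraries, and TG MoM 1 was far above TG MoM 2. Eno3 rose in TG MoM against TG Kupffer cells, with a log2 fold change of 3.70 (SE 0.55) and an adjusted p of 0.0371 in edgeR, and it lost the call when either library of TG MoM or of either Kupffer group was left out. The list's median log2 fold change was 0.38 and -0.12 for TG against WT in Kupffer cells and MoM, and 0.67 and -0.01 for MoM against Kupffer cells in WT and TG.

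Other routes of glucose use gave 1 further call. Among 11 genes of glycogen metabolism, Pgm2l1, a sugar-phosphate mutase that makes glucose 1,6-bisphosphate, fell in MoM against Kupffer cells in both genotypes. It was the only 1 called, beside 1.17% of all genes in WT and 2.50% in TG. It was at 60.3 and 63.1 CPM in WT Kupffer cells, 42.3 and 37.8 CPM in TG Kupffer cells, 24.0 and 23.0 CPM in WT MoM and 15.9 and 17.7 CPM in TG MoM. No group overlapped another, and the log2 fold change was -1.39 (SE 0.18) in WT and -1.25 (SE 0.18) in TG, with adjusted p of 0.0369 and 0.0359 in edgeR. Both calls were lost when either WT Kupffer or either TG MoM library was left out, and also without WT MoM 2 in WT and without TG Kupffer 1 in TG. None of the 15 regulators of glycolytic flux, 8 genes of the pentose phosphate pathway, 5 tested genes of gluconeogenesis, 11 HIF and MYC regulators or 14 tested HIF targets outside glycolysis was called by edgeR in any comparison. The members of these lists with the smallest p were Pfkfb2, a regulator of phosphofructokinase, at 29.7 and 34.2 CPM in WT Kupffer cells and 13.2 and 12.7 CPM in WT MoM, and H6pd, the first pentose phosphate enzyme of the endoplasmic reticulum, at 83.5 to 113 CPM in Kupffer and 34.0 to 56.4 CPM in MoM libraries. Mxi1, a MYC antagonist and HIF target, was at 79.0 and 70.7 CPM in WT and 40.1 and 35.6 CPM in TG Kupffer cells, with an adjusted p of 0.674 in edgeR. Adm, the HIF target adrenomedullin, was at 18.3 and 26.9 CPM in TG Kupffer cells and 1.36 and 4.20 CPM in TG MoM. Its adjusted p was 0.0697 in edgeR. Of the 14 tested HIF targets, 8 had a positive value in that comparison and 6 a negative one. Their median log2 fold change was 0.15, beside -0.04 over all genes. The other genes that ranked first by p in these lists were Dlat (30.8 to 83.0 CPM), Rpia (16.3 to 32.4 CPM), Pck2 (12.5 to 27.8 CPM) and Vhl (14.9 to 56.3 CPM), and, at low levels, Fbp1 (0.151 to 9.60 CPM) and Egln3. Egln3 was at 0.149 to 2.47 CPM in Kupffer and 2.22 to 9.94 CPM in MoM libraries. Gapdhs and Ldhc, germ cell paralogs of Gapdh and Ldha, did not exceed 0.682 CPM in any library.

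Proliferation genes were listed because growing cells also use glycolysis. Of 12, edgeR called 3 in TG MoM against TG Kupffer cells, beside 2.50% of all genes, and 0 in the other 4 comparisons. The 3 were Mcm5, Rrm2 and Mcm2, which serve DNA replication and nucleotide supply. Mcm5 was at 33.2 CPM in both TG Kupffer libraries and 86.3 and 69.6 CPM in TG MoM, a log2 fold change of 1.23 (SE 0.18) with an adjusted p of 0.0371 in edgeR. All 12 had a positive value in that comparison, with a median of 1.24 beside -0.04 over all genes, and Rrm2 and Mcm2 rose by log2 fold changes of 1.74 (SE 0.28) and 1.00 (SE 0.18), with adjusted p of 0.0433 and 0.0493 in edgeR. Each of these 3 calls was lost when TG Kupffer 1 or any WT Kupffer or TG MoM library was left out, and that of Mcm2 also under both other scalings.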

How the data were processed

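The members and the gene lists were chosen with earlier results of these data known. Alignment was with STAR 2.5.2b to mm10, per the submitters' processing notes, while the counting tool and its strandedness were not given in the sources used here, nor was the annotation. The deposited files hold counts, whole numbers per gene symbol and library with no normalization by the authors. Of counts from 1 to 19, 65.0% to 68.0% were even, which overstates the number of separate fragments if mates were counted singly. The authors' deposited table of TG against WT has, per the file headers, p-values, a score (the Wald statistic), log2 fold changes with standard errors, and baseMean, a normalized mean and thus other than raw counts.

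Groups and replicate numbers came from the sample titles. All 8 libraries were fitted as 4 groups in edgeR 4.0.16 (R 4.3.3) after filterByExpr, with TMM scaling, the quasi-likelihood test and Benjamini-Hochberg adjustment over 15254 genes. Residual degrees of freedom were 4 and prior ones 2.37, and the common biological coefficient of variation came to 0.507. The procedure was tested on simulated data. Alternatives were RLE scaling, plain library totals, no filter, a replicate block, leaving out libraries, fitting only the 4 libraries compared, and DESeq2 1.42.0. Positions and lengths are from GENCODE M21 (GRCm38), with the principal transcript as length; the union of exons was added after seeing the data. Promoters are from RefSeq. Copies were found with blastn among the annotated transcripts.

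All 10 members were named, with every step lacking a member and the main paralogs; 2 genes that the naming rules pick are not reported here. From each other list up to 3 called genes per comparison were named, or the 2 with the smallest p where none was called. Likeness used log2(CPM + 0.5) over genes that averaged 10 CPM or more, predicted genes left out. Gm12070 and Eno1b were named after their values were seen.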

Additional observations from a re-analysis of the deposited data

How the results depend on the processing

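All 24 member fold changes larger than their standard error kept their sign under every alternative, and 24 of the 26 smaller ones changed sign under at least 1 alternative. For MoM against Kupffer cells in WT, 1 member was called with all libraries and TMM scaling. The number was 0 with RLE scaling, 2 without TG Kupffer 2 and WT MoM 1, 2 with DESeq2, and 0 to 1 when 1 library was left out. In TG it was 2 without those libraries, 0 with only the 4 libraries compared, 2 with DESeq2, and 0 to 1 when 1 library was left out. The cause was not tested. With plain library totals, the number of members above without overlap for WT MoM against WT Kupffer cells was 8 in place of 4, while the share of all genes above went from 38.5% to 47.7% and the median of all genes moved by 0.22 (log2). The same scaling moved that median by -0.11 for TG against WT in MoM and by -0.15 for the interaction, and fitting the WT libraries alone moved it by -0.11 in WT. Over all genes, calls in WT MoM against Kupffer cells ran from 0 to 2677 and in TG from 0 to 2130 when libraries were left out, with 178 and 381 with all libraries, and without TG Kupffer 1 there were 257 calls in Kupffer TG against WT and 83 in the interaction, with 0 of each with all libraries. With only the 4 libraries compared there were 1585 calls in WT and 0 in TG, and DESeq2 called 2832 and 2580.

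With the replicate number as a block, 1 member was called in WT and 1 in TG, 0 in the other comparisons, and 234 and 301 of all genes. The labels do not say what a number stands for. For that reason the main fit did not treat the numbers as pairs. The deviations of same-numbered libraries correlated at r = 0.62 between TG Kupffer cells and TG MoM. Between WT Kupffer cells and WT MoM r was -0.14, and the other pairs of groups lay between these values. Whether the TG libraries were paired was not tested. With 2 libraries per group, a library left alone in its group is assumed to vary like the other groups.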
